A study of Mus musculus with 9 samples.

Results

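Transcription and a histone mark were followed for the digestive hydrolases of the brush border, the enzymes that finish the digestion of sugars, peptides and phosphate esters at the surface of the small intestine. The group holds 9 genes, chosen by name: Sis, Lct, Treh, Mgam, Anpep, Dpp4, Enpep, Alpi and Mme. All 9 were found among the 24505 genes of the deposited GRO-seq table, each as 1 entry with 1 genomic copy, and all 9 passed the filter on low values. GRO-seq, a nuclear run-on assay that reads RNA under synthesis by engaged polymerase, covered 3 mouse duodenal organoid cultures with 2 libraries each. The culture RANKL, named like the cytokine that drives M cell formation, is labelled as intestinal M cell, a cell type that carries antigens from the gut lumen to immune cells. ENRI is labelled as enterocyte and WENRC as intestinal stem cell, and each of these has 1 library from mouse 1 and 1 from mouse 2. H3K27me3, the repressive histone mark of Polycomb complex PRC2, was mapped with ChIP-seq in RANKL, whose 2 libraries the authors pooled, and in 1 WENRC library. The labels name no strain, age or genetic change, do not tie the RANKL libraries to a mouse, and do not spell out ENRI and WENRC.

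Most of these enzymes are anchored in the microvillus membrane with the active site facing the gut lumen. Sis, Mgam, Treh and Lct release monosaccharides for uptake, Anpep, Enpep, Dpp4 and Mme trim peptides, and Alpi removes phosphate groups, including those of bacterial lipopolysaccharide. They are textbook markers of the differentiated enterocyte, absent or low in crypts, and factors of the CDX, HNF1, HNF4 and GATA families are known to act at several of their promoters. M cells are known for short, irregular microvilli and weak alkaline phosphatase staining.

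GRO-seq levels are given on the log2 scale on which the authors deposited them, where low values are drawn together, and their read depth is unknown. Per the header both RANKL libraries combine reads of repeated sequencing, so culture and sequencing cannot be told apart for RANKL. The header gives the ENRI and WENRC libraries 2 dates, 1 for each mouse. Across the 16563 tested genes replicates differed by a median of 0.12 (RANKL), 0.33 (ENRI) and 0.19 (WENRC). Marker lists followed the labels in part: 6 of 6 M cell markers were higher in RANKL than in either other culture, 6 of 6 stem markers were higher in WENRC than in ENRI, and 7 of 7 enterocyte markers were lower in WENRC than in ENRI (limma, false discovery rate (FDR) under 0.05). RANKL also had stem markers above ENRI (4 of 6 called) and Paneth markers above both other cultures (3 of 6 called in each). None of 5 mesenchyme markers passed the filter on low values. No marker was listed at 0 in all libraries. These are bulk cultures, in which fewer cells of a type and less RNA per cell cannot be told apart.

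Promoter sequences of all 9 genes were found in the RefSeq table for GRCm38.p6, another build than the mm9 of the expression values. It gives 250 bases before and 50 after each start site, with 3 start sites for Mme and 1 for each other gene. Shown here are Sis and Alpi, which were lowest in WENRC, and Lct and Dpp4, which were lowest in RANKL; capitals mark matches to the searched motifs, which are spelled out after the sequences.
Sis, GRCm38.p6 chr3:72967814-72968113, minus strand: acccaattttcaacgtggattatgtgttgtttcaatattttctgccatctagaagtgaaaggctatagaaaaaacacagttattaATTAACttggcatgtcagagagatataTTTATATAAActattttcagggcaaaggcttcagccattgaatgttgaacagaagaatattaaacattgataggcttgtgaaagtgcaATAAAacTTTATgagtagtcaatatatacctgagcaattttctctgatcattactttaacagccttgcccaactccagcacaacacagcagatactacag
Alpi, GRCm38.p6 chr1:87101557-87101856, minus strand: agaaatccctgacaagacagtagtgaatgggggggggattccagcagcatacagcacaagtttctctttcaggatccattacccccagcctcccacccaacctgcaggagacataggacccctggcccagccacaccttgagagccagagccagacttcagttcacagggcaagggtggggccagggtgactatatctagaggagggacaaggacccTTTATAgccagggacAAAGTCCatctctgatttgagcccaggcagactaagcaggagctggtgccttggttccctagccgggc
Lct, GRCm38.p6 chr1:128328269-128328568, minus strand: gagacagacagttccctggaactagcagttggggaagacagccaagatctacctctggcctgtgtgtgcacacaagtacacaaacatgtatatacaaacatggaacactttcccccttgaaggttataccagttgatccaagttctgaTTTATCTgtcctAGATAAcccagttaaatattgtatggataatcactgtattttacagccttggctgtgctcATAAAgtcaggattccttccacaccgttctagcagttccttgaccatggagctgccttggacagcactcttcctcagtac
Dpp4, GRCm38.p6 chr2:62412182-62412481, minus strand: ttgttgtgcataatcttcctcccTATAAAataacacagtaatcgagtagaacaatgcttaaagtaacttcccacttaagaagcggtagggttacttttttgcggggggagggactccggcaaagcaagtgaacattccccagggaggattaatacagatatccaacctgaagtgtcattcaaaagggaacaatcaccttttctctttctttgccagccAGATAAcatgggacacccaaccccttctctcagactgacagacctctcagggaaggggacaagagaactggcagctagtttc
The motifs were searched on both strands: TTTAT for CDX factors, AGATAA or TGATAA for GATA factors, GTTAAT for HNF1, AAAGTCC for HNF4 and TATAAA for a TATA box, whose reverse strand holds TTTAT. Positions give the leftmost base of a match, counted back from -1, the base before the start site.

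Sis, the best known CDX target of the group, held TTTAT at -138, -133, -50 and -43, the farther pair within TATAAA matches, and held the only HNF1 match of the group, at -165. In Alpi a reverse-strand TATAAA lay at -33 and an HNF4 match at -18. Treh held HNF4 matches at -226 and -70. Lct held AGATAA on both strands, at -101 and -90, Dpp4 held it at -32, and Mgam held it on the reverse strand at -208 and -66. With the 3 start sites of Mme, the group has 11 promoter entries. TTTAT was found in 6 of the 11 (Sis, Lct, Mgam, Dpp4, Enpep and Alpi), against 40.0% of all 32851 promoters of the table. In Dpp4, Enpep and Alpi each TTTAT match lay within a TATAAA match. TATAAA was found in 5 of the 11 entries (13.6% of all promoters), a GATA motif in 3 (18.6%), AAAGTCC in 2 (4.2%) and GTTAAT in 1 (7.1%). Anpep and Mme held no match in these windows. Such matches are descriptions of sequence, and no binding was measured here.

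Levels of the 9 genes were highest in ENRI for all but Anpep. The order WENRC, RANKL, ENRI from low to high was seen for 6 genes (Sis, Mgam, Treh, Enpep, Mme and Alpi), with RANKL lying 52.8% to 80.2% of the way from the WENRC to the ENRI mean on the log2 scale. Dpp4 and Lct were lowest in RANKL. Anpep was about as high in RANKL as in ENRI.

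Sis encodes sucrase-isomaltase, which splits sucrose and the ends of starch chains (NM_001081137, mm9 chromosome 3, 72692482 to 72770788, minus strand). Its values were 14.52 and 15.45 in ENRI 1 and 2, 13.79 and 13.82 in RANKL 1 and 2, and 12.11 and 10.66 in WENRC 1 and 2. The 3 cultures did not overlap, and the WENRC libraries lay farthest apart. Sis was lower in WENRC than in ENRI by a log2 change of -3.60 (SE 0.53, limma FDR 0.0146) and higher in RANKL than in WENRC by 2.42 (SE 0.53, limma FDR 0.0373). The difference of RANKL from ENRI was -1.18, with a 95% interval of -2.46 to 0.11 (limma FDR 0.165), and was -2.06 under quantile normalization (limma FDR 0.0737). Under the same setting the RANKL change over WENRC lost its call, at 1.83 (limma FDR 0.129).

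Mgam, maltase-glucoamylase, also digests starch products (NM_001171003, mm9 chromosome 6, 40578830 to 40719122, plus strand). Its values were 14.35 and 14.85 in ENRI, 13.59 and 13.67 in RANKL, and 12.80 and 12.28 in WENRC. The order was that of Sis, over a narrower range. The change in WENRC against ENRI was -2.06 (SE 0.28, limma FDR 0.0127). RANKL differed from ENRI by -0.97 (limma FDR 0.0559) and from WENRC by 1.09 (limma FDR 0.0570), each just outside the threshold and with a 95% interval that did not reach 0 (-1.65 to -0.30 and 0.41 to 1.76). Under quantile normalization the difference from WENRC was 0.40 (limma FDR 0.245) and that from ENRI passed at -1.24 (limma FDR 0.0120).

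Treh, trehalase, splits the fungal and insect sugar trehalose (NM_001277847, mm9 chromosome 9, 44481316 to 44494388, plus strand). Its values were 9.22 and 10.41 in ENRI, 8.63 and 8.61 in RANKL, and 6.73 and 6.18 in WENRC. Again no cultures overlapped. Treh changed by -3.36 in WENRC against ENRI (SE 0.40, limma FDR 0.0103) and by 2.17 in RANKL against WENRC (SE 0.40, limma FDR 0.0235), while RANKL against ENRI gave -1.20 (95% interval -2.18 to -0.22, limma FDR 0.0845).

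Lct, lactase, the milk sugar enzyme that is known to decline after weaning, had another order (NM_001081078, mm9 chromosome 1, 130181333 to 130224895, minus strand). Its values were low and close together: 7.48 and 7.79 in ENRI, 7.30 and 7.24 in WENRC, and 6.57 and 6.78 in RANKL. RANKL was the lowest culture, and its change from ENRI was -0.96 (SE 0.19, limma FDR 0.0202). Fitted on the 4 RANKL and ENRI libraries alone, this change had an FDR of 0.0565, and without RANKL 1 or RANKL 2 it had 0.161 or 0.131. The difference between WENRC and ENRI was -0.37 (95% interval -0.83 to 0.09, limma FDR 0.239; -0.21 without ENRI 2), and that of RANKL from WENRC was -0.60 (95% interval -1.06 to -0.13, limma FDR 0.0979).

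**Figure D1:**
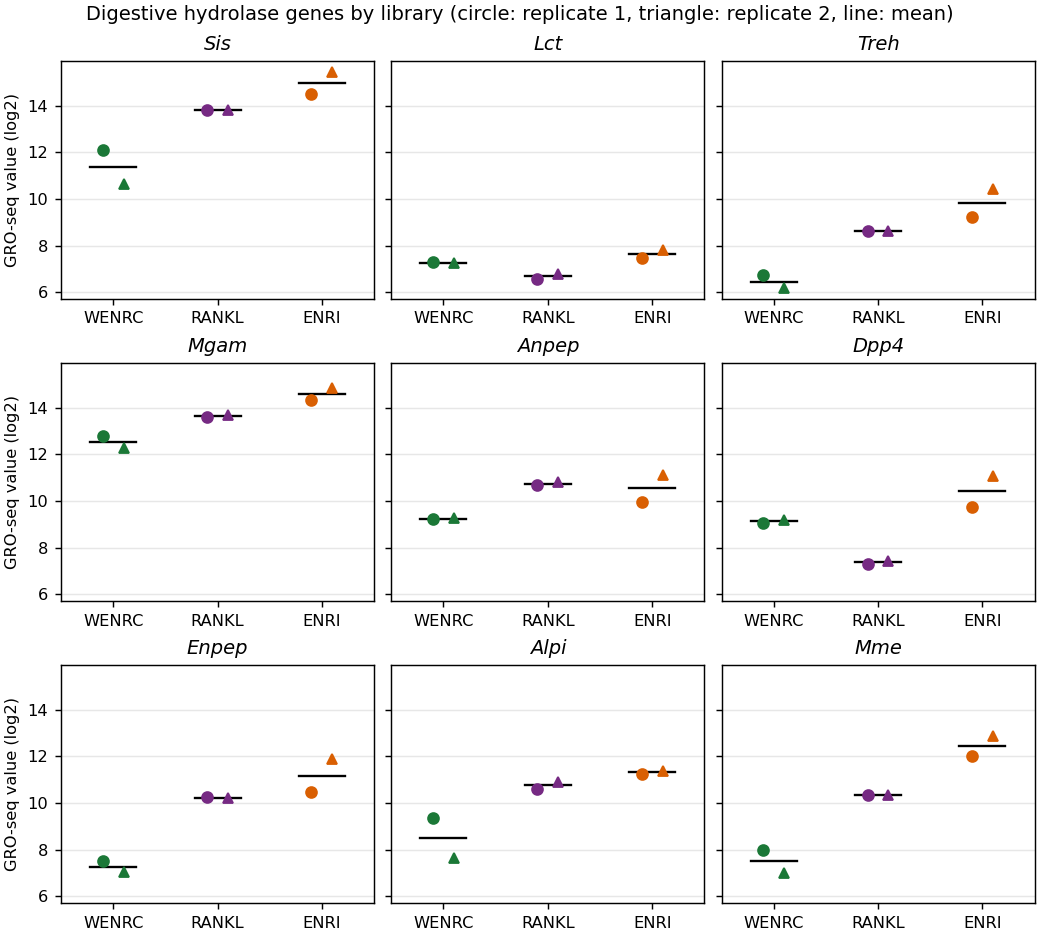
GRO-seq values (log2 scale, y axis) of the 9 digestive hydrolase genes in the 2 libraries of each culture (x axis), with circles for replicate 1, triangles for replicate 2 and lines for means. Sis, Treh, Mgam, Enpep, Alpi and Mme step up from WENRC over RANKL to ENRI, while Dpp4 lies at 7.29 and 7.43 in RANKL, below all other libraries.

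Among the 9 genes, Mme had the largest change between WENRC and ENRI. It encodes neprilysin, an endopeptidase of the cell surface (NM_001289462, mm9 chromosome 3, 63099357 to 63187635, plus strand). Its values were 12.03 and 12.86 in ENRI, 10.33 and 10.33 in RANKL, and 8.0 and 7.0 in WENRC. The 3 cultures were well separated, and all 3 comparisons passed the test. Mme changed by -4.94 in WENRC against ENRI (SE 0.39, limma FDR 0.00624), by 2.83 in RANKL against WENRC (SE 0.39, limma FDR 0.0109) and by -2.12 in RANKL against ENRI (SE 0.39, limma FDR 0.0172).

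Enpep, glutamyl aminopeptidase, removes acidic residues from peptide ends (NM_007934, mm9 chromosome 3, 128972095 to 129035667, minus strand). Its values were 10.48 and 11.87 in ENRI, 10.24 and 10.21 in RANKL, and 7.52 and 7.03 in WENRC. WENRC stood far below both other cultures, and ENRI 1 lay nearer to RANKL than to ENRI 2. The change was -3.90 in WENRC against ENRI (SE 0.44, limma FDR 0.00996) and 2.95 in RANKL against WENRC (SE 0.44, limma FDR 0.0132). RANKL against ENRI gave -0.95 (95% interval -2.03 to 0.13, limma FDR 0.179), which moved to -1.65 without ENRI 1 and to -0.26 without ENRI 2.

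Anpep, aminopeptidase N, is the most abundant aminopeptidase of the brush border (NM_008486, mm9 chromosome 7, 86966689 to 86987238, minus strand). Its values were 10.66 and 10.83 in RANKL, 9.97 and 11.11 in ENRI, and 9.22 and 9.25 in WENRC. The RANKL libraries fell between the 2 ENRI libraries, and WENRC lay below all others. Anpep was higher in RANKL than in WENRC by 1.51 (SE 0.35, limma FDR 0.0461). The change in WENRC against ENRI was -1.31 (95% interval -2.17 to -0.44, limma FDR 0.0594), and it moved to -0.73 without ENRI 2 and to -1.88 without ENRI 1. For RANKL against ENRI it was 0.21 (95% interval -0.66 to 1.07, limma FDR 0.711), and it changed sign to -0.36 without ENRI 1 and moved to 0.78 without ENRI 2.

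Dpp4, dipeptidyl peptidase 4, cuts dipeptides off the ends of peptides and inactivates incretin hormones (NM_010074, mm9 chromosome 2, 62168130 to 62250288, minus strand). Its values were 9.73 and 11.08 in ENRI, 9.07 and 9.19 in WENRC, and 7.29 and 7.43 in RANKL. RANKL was the lowest culture by a clear margin. Dpp4 changed by -3.05 in RANKL against ENRI (SE 0.41, limma FDR 0.00752) and by -1.77 in RANKL against WENRC (SE 0.41, limma FDR 0.0458). The authors' deposited log2 change for RANKL against ENRI was larger, at -3.84. The difference between WENRC and ENRI was -1.28 (95% interval -2.29 to -0.27, limma FDR 0.0903). It moved to -1.96 without ENRI 1 and to -0.60 without ENRI 2, fits in which ENRI adds no spread of its own. Dpp4 was the only one of the 9 genes called lower in RANKL than in WENRC.

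Alpi, intestinal alkaline phosphatase, is the shortest gene of the group (NM_001081082, mm9 chromosome 1, 88994577 to 88998181, minus strand). Its values were 11.25 and 11.38 in ENRI, 10.60 and 10.91 in RANKL, and 9.36 and 7.63 in WENRC. The 2 WENRC libraries differed by 1.74, the widest replicate gap among the 9 genes. Alpi changed by -2.82 in WENRC against ENRI (SE 0.52, limma FDR 0.0242) and by 2.26 in RANKL against WENRC (SE 0.52, limma FDR 0.0451), the latter moving to 1.39 without WENRC 2 (limma FDR 0.0620). RANKL against ENRI gave -0.56 (95% interval -1.84 to 0.72, limma FDR 0.488).

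Akp3, the neighbouring alkaline phosphatase gene that is known from mouse duodenum, had another order. Its values were 10.06 and 10.43 in RANKL, 8.70 and 8.18 in ENRI, and 8.52 and 7.19 in WENRC. RANKL was the highest culture, with changes of 1.80 over ENRI (SE 0.44, limma FDR 0.0367) and 2.39 over WENRC (SE 0.44, limma FDR 0.0235). Alpi and Akp3 are related in sequence, and how reads matching both were counted is not given in the sources used here.

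Asked across the group, WENRC and ENRI compare the stem and enterocyte cultures of the same mice. In WENRC 6 of the 9 genes fell (Sis, Treh, Mgam, Enpep, Alpi and Mme), with log2 changes from -2.06 (Mgam) to -4.94 (Mme), and 0 rose. The test called 14.6% of all tested genes, 9.74% as lower in WENRC and 4.85% as higher. The median change of the 9 genes was -2.82, against -0.01 for all tested genes. No gene had overlapping WENRC and ENRI libraries, which held for 58.5% of tested genes. Goblet cell markers moved in the same direction: 4 of 6 were called lower in WENRC than in ENRI, with a median of -1.67 (Muc2 -3.71, Clca1 -2.88, Fcgbp -2.10 and Tff3 -1.24). Summed levels are the log2 of the sum of linear values, so the highest genes lead them, here Fcgbp (13.22 in RANKL 1). The summed level of the 6 was 13.82 and 13.31 in ENRI, 13.64 and 13.60 in RANKL and 11.92 and 10.96 in WENRC. Its part in the result was not tested. The calls rest on a spread shared by all 6 libraries. With only the 4 ENRI and WENRC libraries in the fit, limma called 0 of all 16563 tested genes, and so 0 of the 9. At an unadjusted p under 0.05 that fit had 8 of the 9, beside 4074 of all tested genes. Adding the mouse as a block to it gave 1 of the 9, Mme, beside 124 of all tested genes. The median change of the 9 genes was -1.95 without WENRC 2 and -3.64 without WENRC 1. The authors' deposited table has 8 of the 9 below an adjusted p of 0.05, all but Lct, against 12.5% of tested genes.

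The same direction was seen in each mouse, but not the same size. All 9 genes were lower in WENRC than in ENRI in both mice, against 38.2% of tested genes. In mouse 1 the difference of WENRC from ENRI ran from -0.18 (Lct) to -4.03 (Mme), with a median of -1.88. In mouse 2 it ran from -0.55 (Lct) to -5.85 (Mme), with a median of -3.75, and it was larger in mouse 2 for each of the 9 genes. ENRI 2 was above ENRI 1 in 9 of 9 genes, against 48.4% of tested genes, and WENRC 2 was below WENRC 1 in 7 of 9, against 63.9%. The 7 enterocyte markers moved the same way, with median differences of -3.20 in mouse 1 and -5.33 in mouse 2, and ENRI 2 above ENRI 1 in 7 of 7. Their part in the hydrolase values was not tested. With 1 library per culture and mouse, the difference between mice has no replicate check. Each mouse has its own date in the header, so mouse and date cannot be told apart.

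**Figure D2:**
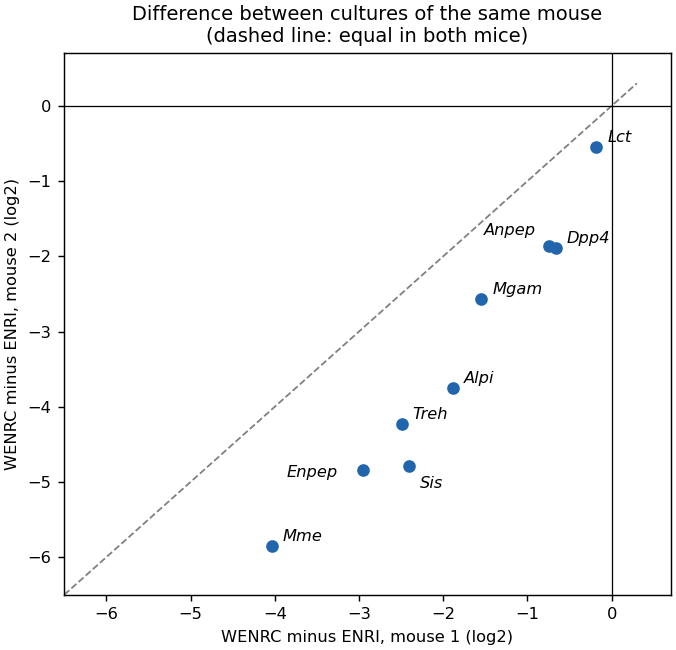
Difference of WENRC from ENRI (log2 scale) for each hydrolase gene in mouse 1 (x axis) and mouse 2 (y axis), with 1 library per culture and mouse; the dashed line marks equal differences. All 9 points lie below 0 and below the line, from Lct (-0.18 and -0.55) to Mme (-4.03 and -5.85).

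RANKL against WENRC compares the M cell with the stem cell culture. In RANKL 6 of the 9 genes rose (Sis, Treh, Anpep, Enpep, Alpi and Mme), by 1.51 (Anpep) to 2.95 (Enpep) on the log2 scale, and Dpp4 fell. The test called 12.1% of all tested genes, 8.53% as higher in RANKL and 3.62% as lower. The median change of the 9 genes was 2.17, against -0.01 for all tested genes, and the libraries of the 2 cultures did not overlap for any of the 9 (68.6% of tested genes). Among 6 goblet markers, 3 rose in RANKL over WENRC (Muc2 3.25, Clca1 2.46 and Fcgbp 2.38) and Spink4 fell (-0.90), with a median of 1.51. The 7 enterocyte markers had a median of 0.27. The part of either list in the result was not tested. Anpep, Dpp4 and Alpi were called close to the threshold (limma FDR 0.0461, 0.0458 and 0.0451). The number called moved with the fit, for the 9 genes and for all tested genes. Without the filter on low values 4 of the 9 were called, beside 1672 of 22374 genes. With the replicate number as a block 5 were called (limma FDR 0.0587 for Sis and 0.0544 for Alpi), beside 1465 of 16563. With only the 4 libraries compared 9 were called, beside 5194 of 16563. With a RANKL or WENRC library left out, fewer of the 9 and fewer of all tested genes were called. Such fits leave a compared culture with a single library. The median change of the 9 was 2.16 without RANKL 1, 2.10 without RANKL 2, 2.44 without WENRC 1 and 1.53 without WENRC 2. When libraries were recentred on their upper quartiles, the medians were -0.12 for all tested genes and 2.05 for the 9. Of the 9 genes, 7 pass in the authors' deposited table, against 27.8% of tested genes.

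RANKL against ENRI compares the M cell with the enterocyte culture. In RANKL 3 of the 9 genes fell, Dpp4 (-3.05), Mme (-2.12) and Lct (-0.96), and 0 rose. The test called 20.9% of all tested genes, 10.5% as lower in RANKL and 10.4% as higher. The median change of the 9 genes was -0.97, against -0.00 for all tested genes, and 8 of the 9 had libraries that did not overlap (64.7% of tested genes). Of the 9 genes, 7 lie in the authors' deposited table below an adjusted p of 0.05, against 19.6% of tested genes: these 3 and 4 more, for which its log2 change is -1.40 for Sis, -1.57 for Treh, -1.12 for Mgam and -1.28 for Enpep. Without ENRI 1 the limma changes of those 4 were -1.64 for Sis, -1.79 for Treh, -1.22 for Mgam and -1.65 for Enpep. Without ENRI 2 they were -0.71 for Sis, -0.60 for Treh, -0.72 for Mgam and -0.26 for Enpep. With only the 4 RANKL and ENRI libraries in the fit, 2 of the 9 were called, Dpp4 and Mme, beside 1925 of 16563 genes. With a RANKL library left out, fewer of the 9 and fewer of all tested genes were called, and with an ENRI library left out, more. The median change of the 9 genes was -0.96 without RANKL 1 and -1.06 without RANKL 2. The summed level of the 7 enterocyte markers was 13.94 and 14.15 in RANKL, 15.13 and 15.92 in ENRI and 12.88 and 12.29 in WENRC. That of the 9 hydrolases was 15.00 and 15.07, 15.75 and 16.52, and 13.78 and 13.05. It is led by Sis and Mgam, and Dpp4, Lct and Anpep did not follow its order. Single markers did not all follow this order: 4 of 7 were called lower in RANKL than in ENRI, but only 2 of 7 higher in RANKL than in WENRC, the apolipoprotein genes Apoa1 (4.57) and Apoa4 (3.97). The other RANKL against WENRC values included 0.27 for Fabp1, 0.04 for Vil1, -0.45 for Fabp2 and -0.81 for Rbp2, and the median was 0.27. The part of these markers in the result was not tested. The comparisons of RANKL with ENRI and with WENRC share the RANKL libraries.

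**Figure D3:**
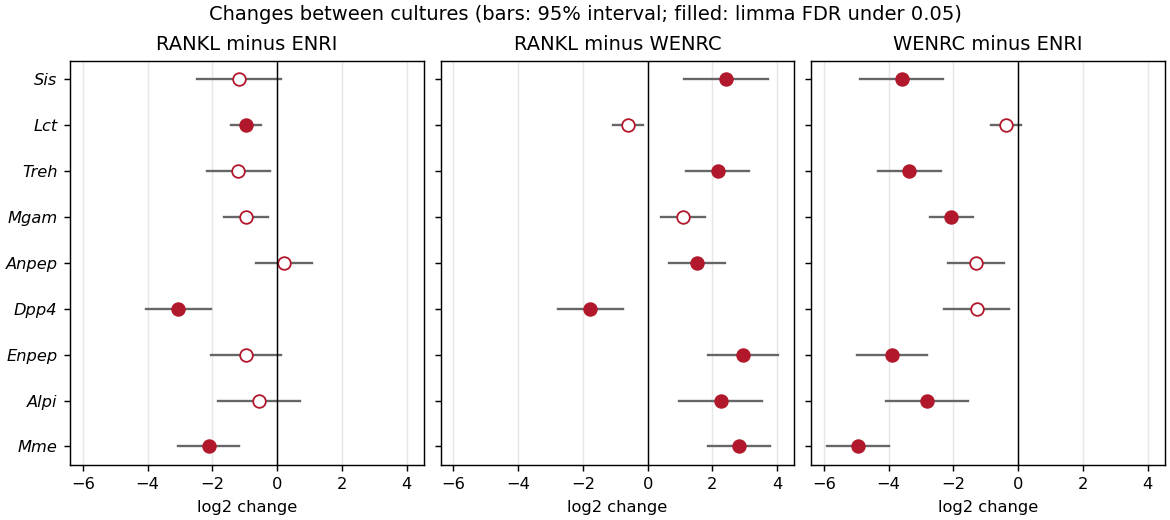
Log2 change (x axis) of each hydrolase gene in the 3 comparisons, with bars for the 95% interval from limma over 2 libraries per culture; filled points have an FDR under 0.05. WENRC minus ENRI is below 0 for all 9 genes, RANKL minus WENRC is above 0 for all but Dpp4 and Lct, and RANKL minus ENRI is below 0 for all but Anpep.

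Per kb of gene, levels differed widely within the group. On the log2 scale per kb, Alpi had the highest level in each culture (9.46 in ENRI, 8.90 in RANKL and 6.65 in WENRC), at or above the 95.8th percentile of tested genes. Sis (8.69), Mgam (7.47), Anpep (6.18) and Treh (6.11) followed in ENRI. Alpi is 3.6 kb long, against 13.07 kb (Treh) to 140.29 kb (Mgam) for the others, and reads were summed over whole genes. The part of gene length, or of reads matching both Alpi and Akp3, in the rank of Alpi was not tested. The ENRI levels of Anpep, Treh and Mme (5.98) differed by less than their SDs of 0.81, 0.84 and 0.58. Lct had the lowest level per kb in ENRI (2.19, the 29.1th percentile). In RANKL the lowest was Dpp4 (0.999, the 19.4th percentile, against the 58.5th in ENRI), and in WENRC it was Mme (1.04, the 19.8th percentile, against the 90.7th in ENRI).

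Other brush border hydrolases were mostly lower in WENRC and went both ways in RANKL against ENRI. Of 18 listed genes, 15 were tested; Alppl2 and Folh1 were under the filter, and Mgam2-ps was not analysed here. In WENRC against ENRI 8 of the 15 fell and 0 rose, among them Ggt1 (-4.46), which acts on glutathione, and Ace (-3.70), which acts on angiotensin peptides; Ace overlaps Gm11651 on the other strand. In RANKL against ENRI 5 fell and 4 rose, and the median change was -0.00, as for all tested genes. Those that fell included Ggt1 (-3.06), the dipeptidase gene Dpep1 (-2.65) and the meprin subunit genes Mep1b (-2.08) and Mep1a (-1.81). Those that rose were the ceramidase gene Asah2 (2.42), Akp3 (1.80), the phospholipase gene Plb1 (1.65) and the aminopeptidase gene Xpnpep2 (1.03). Asah2 was also highest in RANKL against WENRC (4.17), where 5 rose and 0 fell.

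Genes for the uptake of the released sugars and peptides fell with the hydrolases in WENRC. Of 10 such genes, 8 were lower in WENRC than in ENRI and 0 higher, with a median of -2.39. They included the peptide transporter gene Slc15a1 (-4.34), the amino acid transporter gene Slc6a19 (-4.51, overlapping Slc6a19os), the fructose transporter gene Slc2a5 (-2.92) and the glucose transporter gene Slc5a1 (-2.55), which is also an enterocyte marker here. In RANKL against ENRI 4 fell and 0 rose (Slc6a19 at -3.21, Slc15a1 at -2.97, Slc2a5 at -2.09 and Slc7a9 at -1.69). In RANKL against WENRC 4 rose and 0 fell, led by the glucose transporter gene Slc2a2 (2.28) and Slc3a1 (1.99, overlapping Prepl). A list of 23 family relatives with broader sites of expression was set beside these. Of 21 tested, 1 rose and 0 fell in WENRC against ENRI, with a median of -0.00, and 3 fell and 1 rose in RANKL against ENRI, led by the neprilysin relative Mmel1 (-1.73).

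**Figure D4:**
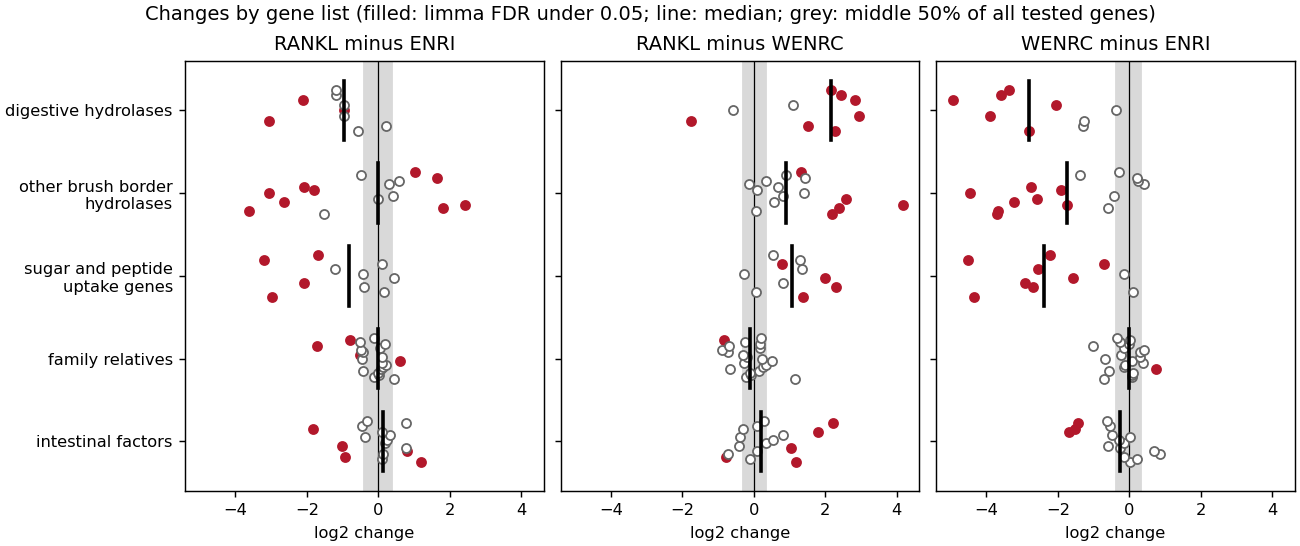
Log2 change (x axis) of each tested gene of 5 lists in the 3 comparisons; filled points have a limma FDR under 0.05, black lines are list medians and the grey band holds the middle 50% of all tested genes. The hydrolase medians stand at -0.97, 2.17 and -2.82, and the medians of the family relatives stand at -0.02, -0.11 and -0.00.

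Of 16 intestinal factors known at such promoters, 3 were called in WENRC against ENRI, 5 in RANKL against WENRC and 5 in RANKL against ENRI, beside 14.6%, 12.1% and 20.9% of all tested genes. Hnf4g (-1.68), Klf4 (-1.53) and Maf (-1.45) fell in WENRC against ENRI and 0 rose. In RANKL against WENRC Maf (2.21), Hnf4g (1.79), Cdx1 (1.19) and Gata4 (1.03) rose and Elf3 (-0.79) fell. In RANKL against ENRI Cdx1 (1.20) and Foxa2 (0.80) rose, and Klf4 (-1.82), Gata5 (-1.01, overlapping Gata5os) and Elf3 (-0.95) fell. Cdx2, named after its values were seen, was called in none of the comparisons (0.10, -0.11 and 0.21 for RANKL against ENRI, RANKL against WENRC and WENRC against ENRI).

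Genes most like each hydrolase were found by the root mean square (RMS) difference of centred log2 values over the 6 libraries, as a description. Sis was nearest to the flavin monooxygenase gene Fmo5 (RMS 0.19) and then to Treh (0.30), the only case in which another of the 9 genes was among the nearest 2. Fmo5 was also nearest to Mme (0.47). Treh was nearest to Gda (0.15) and Btnl1 (0.16), Enpep to Papss2 (0.13) and Adh1 (0.19), Mgam to Dnajb13 and Adipor2 (0.11 each), and Btnl5-ps (0.33) was among the nearest 2 genes of Alpi. Anpep was nearest to Nlrp1b (0.12) and Nqo2 (0.14). Lct was nearest to Pcsk4 (0.05) and Hid1 (0.06), and Dpp4 to Cbr3 (0.24) and Tctex1d4 (0.26). Within the group, Sis, Treh and Enpep lay within 0.37 of each other, and Dpp4 and Mme were farthest apart (2.02).

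H3K27me3 was compared through the authors' lists of regions higher in RANKL (35798 regions) and higher in WENRC (13607 regions), with no replicate values. By nearest gene name, 0 of the 9 hydrolase genes had a RANKL-higher region, against 33.7% of the genes of the GRO-seq table. That count was also 0 for regions with a fold of at least 4 (11.9% of genes), within 5 kb of the start site (19.1%) and by overlap with the gene body (20.7%). A WENRC-higher region was named for 2 of 9, Dpp4 and Mme, against 24.0%. Mme alone had such a region with a fold of at least 4 (9.95% of genes), within 5 kb of the start site (5.44%) and on the gene body (9.82%). The region named for Dpp4 (mm9 chr2:62137393-62137893, authors' fold 3.15) lay 112645 bp from the start site, in an intron of Slc4a10.

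At Mme the region (mm9 chr3:63099621-63100287) covered 666 bp at a promoter and was centred at -63 bp from a start site (NM_001289463). It held 33.3 WENRC tags, scaled by the authors to the RANKL depth, against 7 RANKL tags, an authors' fold of 4.76 (authors' p 1.02e-12). Mme was 2.83 lower on the log2 scale in WENRC than in RANKL in GRO-seq, so the culture with more mark had less transcription at this gene. Of the remaining hydrolases that differed between these cultures in transcription, none had a region on the gene or within 5 kb of its start site. The nearest WENRC-higher regions to Alpi lay 25.1 and 27.6 kb from its start site and were assigned to Akp3 (mm9 chr1:89023291-89024920, fold 3.49, and chr1:89025744-89026521, fold 7.43), which was also higher in RANKL. For Mgam the nearest such region lay at 18.1 kb (fold 3.15, assigned to Tas2r138), and for Dpp4 at 39.1 kb (fold 6.3, assigned to Gcg). Dpp4 went the other way from Alpi, with less transcription in RANKL than in WENRC (-1.77). A RANKL-higher region lay 49.6 kb from Alpi (fold 2.18, assigned to Ecel1).

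RefSeq lists 3 start sites for Mme in GRCm38.p6. Start site 2 follows start site 1 by 661 bp, and in mm9 the start site nearest the region follows the start of the counted transcript by 660 bp. Coordinates were not converted between the builds, and start site 2 was taken as the counterpart by this spacing alone. Its promoter is shown with CpG dinucleotides in capitals, because CpG-rich promoters are known sites of PRC2.
Mme, GRCm38.p6 chr3:63295622-63295921, plus strand: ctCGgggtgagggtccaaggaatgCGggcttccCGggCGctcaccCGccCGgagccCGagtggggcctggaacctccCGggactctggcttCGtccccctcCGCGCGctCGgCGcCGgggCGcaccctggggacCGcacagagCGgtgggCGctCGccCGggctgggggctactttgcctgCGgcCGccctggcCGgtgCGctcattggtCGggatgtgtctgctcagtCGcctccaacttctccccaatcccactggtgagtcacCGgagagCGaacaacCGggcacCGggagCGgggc
It held 32 CpG in 300 bases, the 91.0th percentile of all promoters, whose median was 7. Mme start site 3 held 29 and start site 1 held 4. Of the other genes Anpep held 28 CpG and no region, and the remaining 7 held 1 (Sis, Lct and Alpi) to 7 (Enpep).

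**Figure D5:**
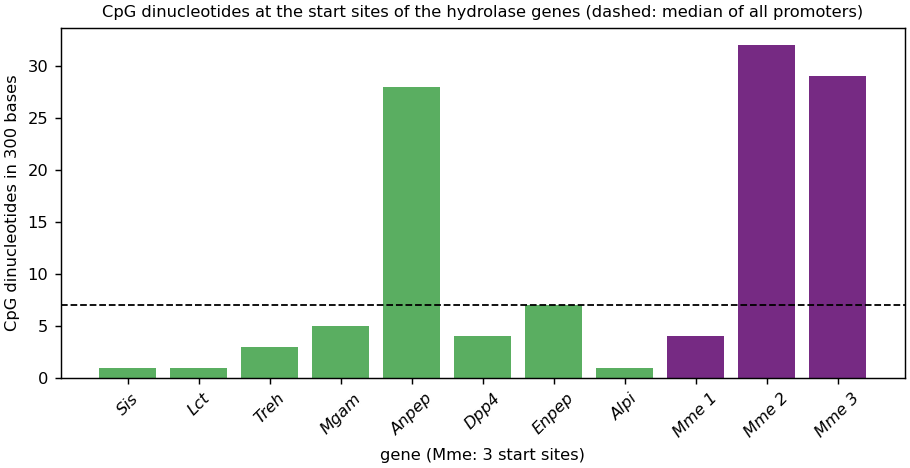
CpG dinucleotides (y axis) in 300 bases at each RefSeq start site of the 9 genes (x axis), with the 3 Mme start sites in purple, all others in green and the median of all promoters, 7, as a dashed line. Anpep (28) and Mme start sites 2 and 3 (32 and 29) stand above the line.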

How the data were processed

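Per the file headers, the authors summed GRO-seq reads over whole mm9 RefSeq genes with HOMER and deposited normalized log2 values, whose shape is that of a regularized logarithm. Bowtie2 2.3.4.1 and DESeq2 are named in the submitters' processing notes. Strand handling is not given in the sources used here. The authors' log2 changes, deposited with p-values and adjusted p-values, are the culture named second minus the one named first. Their sign was turned here for the comparisons of RANKL with ENRI and with WENRC. It was kept for ENRI and WENRC, where it already gave WENRC minus ENRI. H3K27me3 regions were called per the file headers with HOMER against the other culture; deposited values are tag counts (RANKL), scaled tag signal (WENRC) and the authors' fold ratio.

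Of 24505 genes, those with a value of at least log2 of 10 in 2 libraries were tested (16563) with limma 3.58.1 in R 4.3.3, with a variance trend and all 6 libraries in 1 fit. P-values were two-sided, adjusted by the Benjamini-Hochberg method over all tested genes, with calls at an FDR under 0.05. Since edgeR needs counts, it was not used. The fit was tested on simulated data. The numbers of ENRI and WENRC pair libraries of the same mouse, per the labels (correlation of deviations 0.414 across genes). The labels do not say that the RANKL libraries came from separate animals, so p-values measure the spread between these libraries. Members and gene lists were chosen with earlier results of these data known. Named genes were all 9 members, up to 6 called genes of each list and comparison with the largest change, and the 2 genes most like each member. Some genes that this rule names are not reported here. Alternatives varied the filter, scaling, trend, libraries, block and source of the test.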

Additional observations from a re-analysis of the deposited data

How the results depend on the processing

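Of 387 values of single genes under alternatives, 277 kept their direction and side of the threshold, 80 lost the call, 29 gained it and 1 changed sign: Anpep in RANKL against ENRI, which ran from -0.36 without ENRI 1 to 0.78 without ENRI 2. The number of the 9 hydrolases called in RANKL against ENRI was 3, beside 3464 of all 16563 tested genes. It was 7 in the authors' deposited table, beside 3244. When a library was left out, the median change of the 9 ran from -0.71 (without ENRI 2) to -1.64 (without ENRI 1). In RANKL against WENRC the number called was 7, beside 2012 of 16563 genes, and 4 without a filter, beside 1672 of 22374. The median change ran from 1.53 without WENRC 2 to 2.44 without WENRC 1. In WENRC against ENRI the number called was 6, beside 2416 of 16563 genes. It was 0 with the 4 libraries alone, beside 0 of all tested genes. With those and the mouse as a replicate block it was 1, beside 124. The median change ran from -1.95 without WENRC 2 to -3.64 without WENRC 1. The replicate block over all 6 libraries gave 6 called hydrolases, beside 1506 of all tested genes. In that block Sis and Alpi lost the call in RANKL against WENRC (5 called), and no other call changed. A library left alone in its culture was assumed to vary like the others. In such fits the number called fell where a RANKL or WENRC library was left out. It rose where an ENRI library was left out, for the 9 genes and for all tested genes. The other brush border hydrolases called (9, 5 and 8 in these comparisons) ran from 0 to 11, 0 to 10 and 0 to 10 without single libraries. Hydrolases with a WENRC-higher H3K27me3 region were 2, and 1 at a fold of at least 4, 1 within 5 kb of the start site and 1 by overlap with the gene body. GRO-seq depth is unknown, so precision rests on 2 libraries per culture. The causes were not tested.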
